A study of Mus musculus with 2 samples.

Results

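The genes described here are the sensors, the adaptor and the inflammatory caspases of the mouse inflammasome, measured in macrophages sorted from kidney. The set has 10 genes of the 48795 in the table, the sensors Nlrp1a, Nlrp1b, Nlrp3, Nlrc4, Naip2, Naip5 and Aim2, the adaptor Pycard and the caspases Casp1 and Casp4. They were taken by symbol from a list of inflammasome genes, and the set was selected on the ratio of R2a over R2b, with that of Nlrp1b noted as high. All 10 had more than 1 CPM (counts per 1000000 reads on genes, scaled between libraries) in each library, so no member was lost to the minimum.

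Kidney cells of wild-type C57BL/6 mice, 8 weeks old, were sorted into resident macrophages with CD11c on the surface (R2a) and without it (R2b). The labels give no other allele and no agent for either population. RNA of 6 to 8 mice was pooled and sequenced as 1 library per population, so animal-to-animal spread is unknown and no test was made. The title of the series names cystic kidney disease, and the labels put both libraries in wild-type mice. Reads on genes numbered 11811923 in R2a against 23915896 in R2b. The macrophage genes Adgre1, Csf1r, C1qa and Cx3cr1 were each present in both, from 815 CPM in R2a and 945 CPM in R2b for Cx3cr1 upward. Itgax, which encodes the sort marker CD11c, had 367 CPM in R2a against 48.9 CPM in R2b.

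An inflammasome is a complex that assembles in the cytosol when a sensor meets a microbial product or a sign of cell damage. The sensor, directly or through the adaptor ASC, the product of Pycard, gathers caspase-1, which cuts the precursors of the cytokines IL-1β and IL-18 and the pore protein gasdermin D. In a parallel route mouse caspase-11, the product of Casp4, binds bacterial lipopolysaccharide and cuts gasdermin D itself. Macrophages are among the main cells that use both routes.

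Of the 10 genes a sensor and a caspase differed most between the libraries. Nlrp1b was higher in R2a by 2.05-fold, Casp4 was lower in R2a by 2.17 times, and the other 8 genes lay between 1.28 times lower and 1.65-fold higher. The rule used for a call asked for a log2 ratio of at least 1 in size after 0.5 CPM was added to each value, at least 1 CPM in the higher library, and a 95% interval of the counting error without 1. By this rule 1 of 10 was higher in R2a, where 1.93% of the 15603 genes over the minimum were, and 1 of 10 was lower, where 1.84% were. These counts are a description, since the same ratios were in view when the genes were chosen. With a 1.5-fold rule 2 members were higher, against 5.57% of all genes, and 1 was lower, against 5.79%. The median log2 ratio of the 10 was 0.08 and that of all 15603 genes was -0.01, with quartiles at -0.20 and 0.19. Summed over the 10 genes the level was 595 CPM in R2a against 556 CPM in R2b. Intervals below cover counting error only, and fewer cells of a kind cannot be told apart from less RNA per cell.

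**Figure D1:**
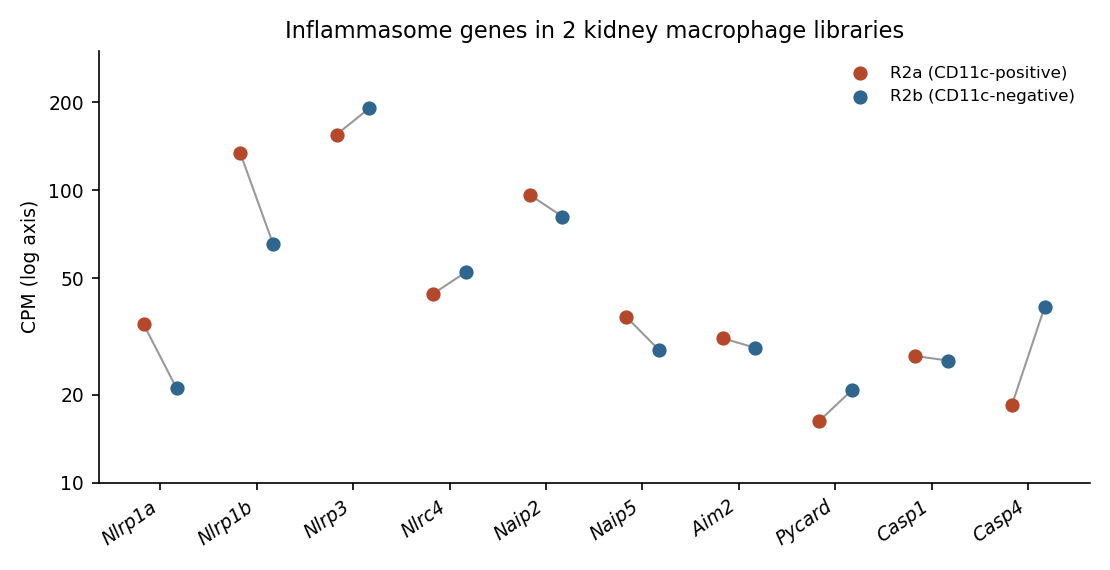
CPM of each inflammasome gene on a log axis, with 1 point per library, R2a on the left of each pair and R2b on the right. The lines of Nlrp1b and Casp4 are the steepest and slope in opposite directions, and those of Aim2 and Casp1 are nearly flat.

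The NLRP1 proteins are sensors that are released by their own partial degradation. Mouse NLRP1B is known for its response to the anthrax lethal factor protease, which only the alleles of some strains have and that of C57BL/6 does not. Nlrp1b (ENSMUSG00000070390.12, GRCm38 chromosome 11, 71153102 to 71230733, minus strand) had 1630 reads in R2a against 1528 in R2b, although the R2b library held 2.02 times as many reads. That is 134 CPM in R2a against 65.7 CPM in R2b, a 2.05-fold higher level (1.91 to 2.19), and the interval holds 2. Among all genes over the minimum 282 had a higher ratio. Nlrp1a (ENSMUSG00000069830.10, 71092236 to 71144704, minus strand), its neighbour and closest relative among the members, had 422 reads in R2a against 490 in R2b. Its 34.8 CPM in R2a against 21.1 CPM in R2b give a 1.65-fold higher level (1.45 to 1.88), short of the rule. The intervals of the pair do not overlap, with Nlrp1b the further from 1. Nlrp1b took 79.4% of the reads of the pair in R2a (77.6 to 81.2, exact binomial) and 75.7% in R2b (73.8 to 77.6).

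The third gene of the cluster lay just outside the rule, where Nlrp1b lay just inside. Nlrp1c-ps (71242430 to 71285232), a transcribed pseudogene, had 1796 reads in R2a against 1724 in R2b, or 148 CPM in R2a against 74.1 CPM in R2b. Its ratio was 2.00 (1.87 to 2.13) and its log2 ratio 0.99, against 1.03 for Nlrp1b. Its level per kilobase of exon, at 42.8 in R2a against 21.4 in R2b, was above that of either coding gene of the cluster in each library.

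The ratios of the cluster were compared with those of its surroundings. Of 15 genes that start within 200 kb of either end of Nlrp1b 10 had at least 10 reads in a library, and 7 of these lie outside the family. On the flank beyond Nlrp1a, 6 coding genes had ratios from 0.95 to 1.34. Nup88, a nuclear pore gene, stood at 40.7 CPM in R2a against 43.1 CPM in R2b, a ratio of 0.95 (0.85 to 1.05). Rpain, which encodes a carrier of replication protein A, had a ratio of 1.03, and C1qbp, a mitochondrial matrix protein gene, 1.13. Mis12, a kinetochore gene, had 1.14 and Derl2, a gene of endoplasmic reticulum protein disposal, 1.06. Dhx33, an RNA helicase gene, was the highest of them at 40.4 CPM in R2a against 30.2 CPM in R2b, a ratio of 1.34 (1.190 to 1.504). The intervals of these 6 genes do not reach those of Nlrp1b and Nlrp1c-ps, and that of Dhx33 overlaps the interval of Nlrp1a. The snoRNA gene Gm23266, just upstream of Nlrp1b, had 17 reads in each library and an interval from 0.920 to 3.995, too wide to place it.

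**Figure D2:**
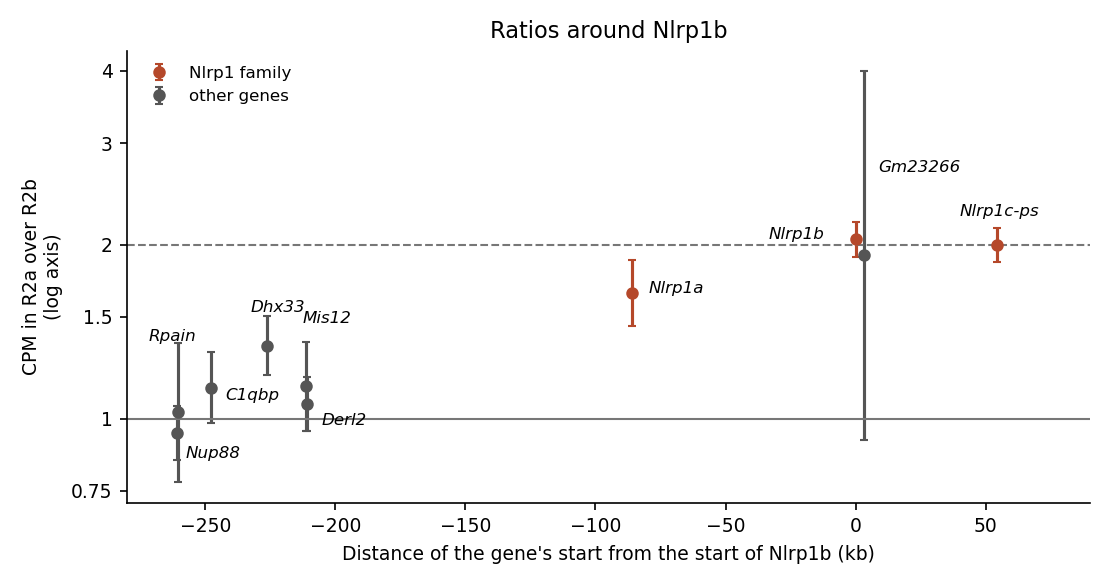
Ratio of CPM in R2a over R2b with its 95% counting interval, on a log axis, against the distance of each gene's start from that of Nlrp1b in kb, negative toward lower coordinates. The 3 Nlrp1 genes lie between 1.65 and 2.05, and the 6 coding genes at the left lie between 0.95 and 1.34.

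The starts of Nlrp1b and Nlrp1a are shown because the pair had ratios in the same direction and their upstream sequences are near copies. Both are from RefSeq (GRCm38.p6), 250 bases before the start, 5′ to 3′ on the minus strand, at chr11:71230734-71230983 for Nlrp1b and chr11:71144705-71144954 for Nlrp1a. Capitals mark letters that match GAGGAAGT (the core bound by PU.1, a master factor of macrophages), AANNGAAA (an element of IRF factors) or TTGCNNAA (an element of C/EBP factors), on either strand.
Nlrp1b: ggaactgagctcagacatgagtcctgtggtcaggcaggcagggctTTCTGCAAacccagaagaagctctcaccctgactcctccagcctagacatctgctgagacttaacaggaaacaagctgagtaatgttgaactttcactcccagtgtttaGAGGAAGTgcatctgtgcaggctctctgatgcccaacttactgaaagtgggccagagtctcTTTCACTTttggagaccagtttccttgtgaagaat
Nlrp1a: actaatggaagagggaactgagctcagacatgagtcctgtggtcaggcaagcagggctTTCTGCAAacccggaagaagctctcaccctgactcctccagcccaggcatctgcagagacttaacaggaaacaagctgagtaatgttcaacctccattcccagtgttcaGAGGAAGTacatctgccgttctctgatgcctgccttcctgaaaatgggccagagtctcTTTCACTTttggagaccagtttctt
The windows were identical at 217 of 237 aligned bases, or 91.6%. Their longest identical run, 37 bases from -49 to -13 of the Nlrp1b start, holds the IRF letters TTTCACTT at -35 to -28. The PU.1 letters stand at -96 to -89 in Nlrp1b and at -83 to -76 in Nlrp1a. Of 32851 RefSeq windows of this length 2.44% held the PU.1 letters, 21.3% the IRF letters and 9.56% the C/EBP letters. No match overlaps another in these windows. All 3 were found together in 26 windows, or 0.0791%, among them those of Nlrp1a, Nlrp1b and Pycard. The motifs were picked with the sequences in view, and a match of letters is not a binding site.

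Reads with several alignments were kept apart from the gene counts, so near copies can lose reads. Of the 75-base windows of annotated Nlrp1b transcripts 0.445% also occur in a transcript of another gene, and of those of Nlrp1a 0.650%, in each case 28 windows shared by the pair. No window of Nlrp1c-ps, Nlrp3, Nlrc4, Aim2, Casp1 or Casp4 occurs in another gene's transcript. The share was 10.7% for Naip2 and 23.8% for Naip5, and their counts are the less certain for it. For Pycard it was 10.9%, all with Gm45205, which overlaps it on the opposite strand. No source used here gives the strand setting of the count. Without it, reads in the part that Pycard and Gm45205 share, 12.8% of the exon bases of Pycard, cannot be told apart.

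Nlrp3 encodes the sensor that responds to potassium efflux and many forms of cell damage, and it is normally kept low until a microbial signal induces it. It was the most abundant member in both libraries. Nlrp3 (chromosome 11, 59541568 to 59566956) had 1883 reads in R2a against 4445 in R2b, or 155 CPM in R2a against 191 CPM in R2b. The level was 1.23 times lower in R2a (1.17 to 1.30) and did not reach the rule.

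The NAIP proteins are receptors for bacterial proteins in the cytosol, NAIP5 for flagellin and NAIP2 for a rod subunit of secretion systems, and NLRC4 is the partner that both recruit. The receptors and the partner had ratios on opposite sides of 1. Naip2 (chromosome 13, 100144063 to 100202092) had 1172 reads in R2a against 1893 in R2b. Its level was 96.6 CPM in R2a against 81.3 CPM in R2b, a ratio of 1.19 (1.10 to 1.28). Naip5 (100211739 to 100246323) had 449 reads in R2a against 663 in R2b, or 37.0 CPM in R2a against 28.5 CPM in R2b, a ratio of 1.30 (1.15 to 1.47). Naip6, a further flagellin receptor next to them, had 55.4 CPM in R2a against 47.1 CPM in R2b, a ratio of 1.18 (1.07 to 1.29). The intervals of the 3 receptors overlap each other. Nlrc4 (chromosome 17, 74425438 to 74459142) had 537 reads in R2a against 1223 in R2b, 44.2 CPM in R2a against 52.6 CPM in R2b, a ratio of 0.84 (0.76 to 0.93). Its interval does not overlap that of any of the receptors, though no ratio reached the rule. Naip2 took 72.3% of the reads of Naip2 and Naip5 in R2a (70.1 to 74.5) and 74.1% in R2b (72.3 to 75.8). These shares differed by less than the counting error. Naip1, the receptor for the secretion needle, had 3 reads in R2a against 0 in R2b.

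Aim2 (chromosome 1, 173350879 to 173466040) encodes a sensor of double-stranded DNA. It had 379 reads in R2a against 673 in R2b, or 31.2 CPM in R2a against 28.9 CPM in R2b, and its ratio of 1.08 (0.95 to 1.23) was not told apart from 1 at this depth.

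Pycard (chromosome 7, 127989708 to 127993867), the gene of the adaptor ASC, had the fewest reads of the members in both libraries. It had 197 reads in R2a against 482 in R2b, or 16.2 CPM in R2a against 20.7 CPM in R2b. The level was 1.28 times lower in R2a (1.08 to 1.51) and did not reach the rule.

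The caspases lie side by side on chromosome 9 and had unlike ratios. Casp1 (5298517 to 5307265) had 329 reads in R2a against 609 in R2b. At 27.1 CPM in R2a against 26.2 CPM in R2b its ratio was 1.04 (0.90 to 1.19), which includes 1. Casp4 (ENSMUSG00000033538.13, 5308828 to 5336783), which starts less than 2 kb beyond the end of Casp1, had 224 reads in R2a against 930 in R2b. It stood at 18.5 CPM in R2a against 39.96 CPM in R2b, 2.17 times lower in R2a (1.87 to 2.52), and the interval holds 2. Among all genes over the minimum 215 had a lower ratio. Casp4 took 40.5% of the reads of the caspase pair in R2a (36.4 to 44.7) and 60.4% in R2b (57.9 to 62.9). The order of the pair in reads was therefore not the same in the libraries. Per kilobase of exon Casp4 stood below Casp1 in both, at 0.275 times its level in R2a and 0.616 times in R2b. The next gene on that side, Casp12, an inflammatory-group caspase close to Casp4, had 13 reads in R2a against 63 in R2b. Its level of 1.07 CPM in R2a was 2.53 times lower (1.38 to 5.01) than its 2.71 CPM in R2b. This call was lost with total-count scaling, where the log2 ratio was -0.97, and with 2 CPM added, where it was -0.62.

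**Figure D3:**
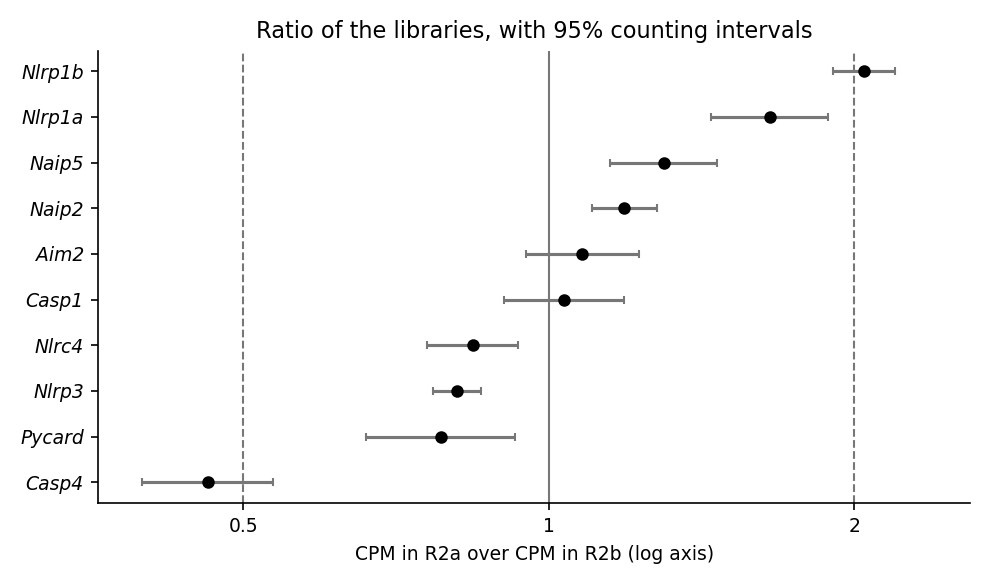
Ratio of CPM in R2a over CPM in R2b on a log axis, with 95% counting intervals, for the 10 inflammasome genes. The solid line is a ratio of 1 and the broken lines are 2-fold differences. The intervals of Aim2 and Casp1 cross 1, and those of Nlrp1b and Casp4 lie farthest from it, each across a broken line.

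The upstream windows of the caspases are shown because the neighbours had unlike ratios. They are from RefSeq (GRCm38.p6), 250 bases before the start on the plus strand, at chr9:5308599-5308848 for Casp4 and chr9:5298267-5298516 for Casp1. Capitals mark the IRF letters and the letters of the NF-κB element, GGG and TTCC with any 3 bases between them, on either strand.
Casp4: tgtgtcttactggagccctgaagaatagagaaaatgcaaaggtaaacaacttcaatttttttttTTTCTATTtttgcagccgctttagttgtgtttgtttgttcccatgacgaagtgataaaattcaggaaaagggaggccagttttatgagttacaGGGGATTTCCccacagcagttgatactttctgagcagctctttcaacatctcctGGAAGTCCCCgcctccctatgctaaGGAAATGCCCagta
Casp1: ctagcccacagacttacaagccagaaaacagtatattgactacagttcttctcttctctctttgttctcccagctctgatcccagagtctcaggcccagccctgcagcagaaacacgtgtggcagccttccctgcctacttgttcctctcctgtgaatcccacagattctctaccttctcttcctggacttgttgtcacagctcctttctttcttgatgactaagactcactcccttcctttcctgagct
The Casp4 window held 3 matches to the NF-κB letters, at -93 to -84, -39 to -30 and -14 to -5, and the Casp1 window held none of the letters searched. The Casp4 window runs past 5308828, the gene's start given above, and the match at -14 to -5 lies beyond that position. At least 1 match was found in 4.65% of the 32851 windows and at least 3 in 6 windows. The NF-κB letters too were picked with the Casp4 sequence in view, so these counts are a description and do not weigh how unusual that window is. No other member's window held the NF-κB letters. None of the 10 windows held TTCNNNGAA, letters of the STAT element, which 7.02% of all windows hold.

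Levels of different genes were compared as CPM per kilobase of the annotated exons. In both libraries Nlrp3 was the highest, at 38.2 in R2a (36.53 to 40.003) and 47.1 in R2b (45.7 to 48.5), above 94.8% of the coding genes over the minimum in R2a and 95.8% in R2b. Below it the order was not the same. In R2a Nlrp1b came next at 21.3 (20.3 to 22.4), followed by Naip2 at 19.9 (18.8 to 21.1) and Casp1 at 18.1 (16.2 to 20.2). The interval of Naip2 overlaps those of both its neighbours. In R2b Casp1 at 17.5 and Naip2 at 16.8 followed Nlrp3 with overlapping intervals, and then Nlrc4 at 10.9, Casp4 at 10.8 and Nlrp1b at 10.4, again overlapping. Nlrp3 was 1.80 times the level of Nlrp1b in R2a and 4.52 times in R2b.

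The lower ranks were close to each other. In R2a Nlrc4 at 9.20, Aim2 at 8.92 and Nlrp1a at 8.34 overlapped in their intervals, and Naip5 at 7.11 overlapped with Nlrp1a. Casp4 at 4.97 (4.34 to 5.67) and Pycard at 4.27 (3.70 to 4.91) closed the order and also overlapped. In R2b Aim2 at 8.26 stood apart from the genes on either side, and Naip5, Pycard and Nlrp1a at 5.47, 5.45 and 5.05 were not told apart. Nlrp3 stood at 8.95 times the level of Pycard in R2a and 8.64 times in R2b. Casp4 stood at 0.275 times the level of Casp1 in R2a and 0.616 times in R2b. Exon lengths are those of GENCODE M21, and a transcript shorter than the annotated exons would have a higher value per length than given here. The length used was 3800 bases for Pycard, which is most of its gene body, and 3710 for Casp4, against 1497 for Casp1. The low places of Pycard and Casp4, and their ratios to Nlrp3 and Casp1, rest on these lengths.

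**Figure D4:**
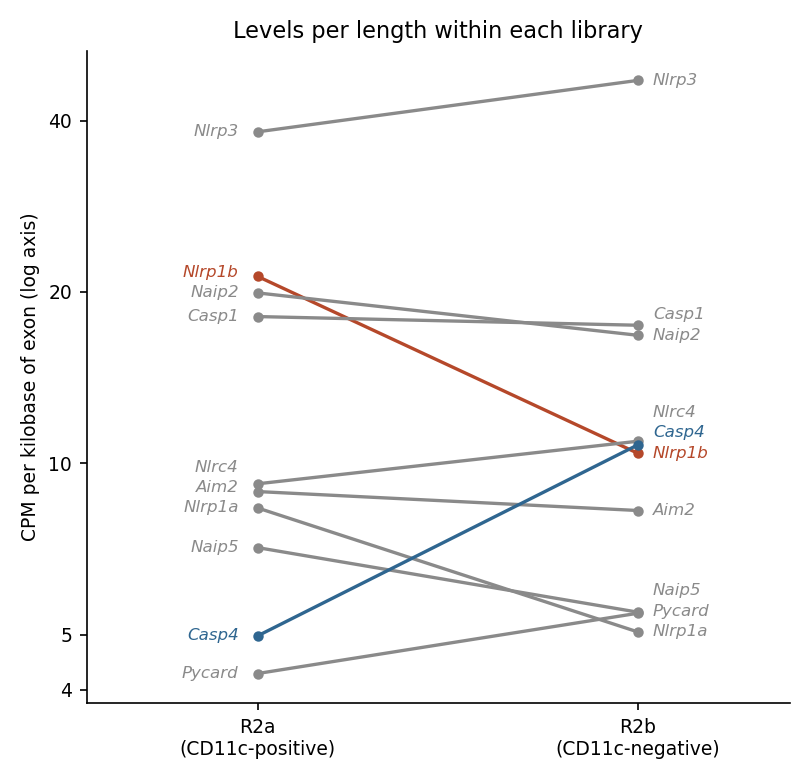
CPM per kilobase of exon on a log axis for each gene, with R2a on the left and R2b on the right. Nlrp3 is highest in both, Nlrp1b is next in R2a at 21.3 and Casp4 lies near the bottom in R2a at 4.97, whereas in R2b both lie between 10.4 and 10.8.

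The genes with levels most like those of Nlrp1b were found by distance of log2 CPM over the 2 libraries, among coding genes over the minimum. Itga8, an integrin chain gene, was the nearest, at 122 CPM in R2a against 62.4 CPM in R2b, a distance of 0.15. Igsf9, an immunoglobulin superfamily gene, had 116 CPM in R2a against 57.2 CPM in R2b, and 9930111J21Rik2 had 120.4 CPM in R2a against 78.3 CPM in R2b, at distances of 0.29 and 0.30. With only 2 libraries such likeness states a level and a ratio and no more.

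The rest of the pathway was described by 9 lists with 135 names, which matched 130 genes, and 106 of these were over the minimum. Of these 2 were higher in R2a and 2 were lower, with 3.77% of all genes over the minimum called in either direction, and the median log2 ratio was 0.04.

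Among the other NLR genes 0 of 9 over the minimum were called, with a median log2 ratio of 0.06. Besides Nlrp1c-ps and Naip6, Nod1, a sensor of bacterial cell wall peptides, had 47.4 CPM in R2a against 35.8 CPM in R2b. Nlrc3, a negative regulator of signalling, had a log2 ratio of -0.25. Of these 17 genes 8 were under the minimum, and 5 of them had no read in either library.

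Of the relatives of Aim2, the HIN-200 genes, and the pyrin genes, 0 of 13 over the minimum were called, with a median log2 ratio of 0.29. Ratios above 1 were found for 11 of these 13, and for 7674 of all 15603 genes. The largest log2 ratio of the list, 0.82, was that of the pyrin gene Mefv, with 25 reads in R2a against 22 in R2b. Its ratio before the added value was 2.18 (1.18 to 4.05), at 2.06 CPM in R2a. Mndal stood at 73.7 CPM in R2a against 43.5 CPM in R2b, a ratio of 1.69 (1.55 to 1.86). Ifi213 had 109 CPM in R2a against 71.2 CPM in R2b, Ifi203 130.1 CPM in R2a against 90.5 CPM in R2b, and Ifi209 103 CPM in R2a against 82.1 CPM in R2b. These genes are interferon-induced and have close relatives beside them, and no share of common sequence was computed for them.

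Of 7 other caspases over the minimum only Casp12 was called, with a median log2 ratio of 0.09. Casp6, an executioner caspase gene, had 14.4 CPM in R2a against 10.3 CPM in R2b. Casp8, the initiator of death receptor signalling, had 76.8 CPM in R2a against 66.7 CPM in R2b, and Casp2 a log2 ratio of 0.12.

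Among genes of pore formation and membrane rupture 1 of 8 over the minimum was higher in R2a and 0 were lower, with a median log2 ratio of 0.15. Gsdmd, the gene of gasdermin D, had 506 reads in R2a against 862 in R2b and a ratio of 1.13 (1.01 to 1.26). The called gene was Ripk3, the kinase of necroptosis, a cell death without caspases. It had 138 reads in R2a against 114 in R2b, or 11.4 CPM in R2a against 4.90 CPM in R2b, 2.32-fold higher in R2a (1.798 to 3.001). Its target Mlkl, the pore protein of that death, had 63 reads in R2a against 84 in R2b, a ratio of 1.44 (1.02 to 2.02). The sensor Zbp1 upstream of them had a log2 ratio of 0.18. Ninj1, which ruptures the membrane after the pores form, had 20.5 CPM in R2a against 31.2 CPM in R2b, a ratio of 0.66 (0.57 to 0.76), short of the rule.

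The cytokines that caspase-1 processes had ratios on either side of 1. Il1b had 7591 reads in R2a against 22906 in R2b, or 625 CPM in R2a against 984 CPM in R2b, a ratio of 0.64 (0.62 to 0.65). Il18 had 8.49 CPM in R2a against 5.71 CPM in R2b, a ratio of 1.48 (1.14 to 1.93). Neither reached the rule. Il1a, whose product is active without caspase-1, had 65 reads in R2a against 44 in R2b, or 5.35 CPM in R2a against 1.89 CPM in R2b, 2.83-fold higher in R2a (1.90 to 4.25), and was the only one of 3 ligands over the minimum to be called. Ripk3 and Il1a both fell short of the rule with 2 CPM added, at log2 ratios of 0.95 and 0.92.

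Receptors and antagonists of the family had 8 of 10 log2 ratios below 0, as did 7929 of all 15603 genes, and a median of -0.14. Only Il18r1, the binding chain of the IL-18 receptor, was called, with 30 reads in R2a against 167 in R2b. Its 2.47 CPM in R2a was 2.90 times lower (1.96 to 4.44) than its 7.18 CPM in R2b. Il1r2, the decoy receptor, had a log2 ratio of -0.28, the inhibitory receptor Sigirr -0.33, Il18rap, the partner chain of the IL-18 receptor, -0.26 and Il1rl2, the receptor for IL-36, 0.27.

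Of 24 activators and licensing factors none was called, with a median log2 ratio of 0.06. Gbp3, an interferon-induced GTPase gene, had 54.0 CPM in R2a against 34.2 CPM in R2b, Gbp2 46.5 CPM in R2a against 34.9 CPM in R2b, and the adaptor gene Ticam1 41.1 CPM in R2a against 30.6 CPM in R2b. Txnip, which binds NLRP3 under oxidative stress, had 701 CPM in R2a against 882 CPM in R2b. Nek7, the kinase that NLRP3 needs, had 1333 reads in R2a against 2474 in R2b, a ratio of 1.03, and the ATP receptor gene P2rx7 2276 reads in R2a against 4770 in R2b, a ratio of 0.91.

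Of 20 restraints over the minimum none was called, with a median log2 ratio of -0.03. The peptidases Dpp8 and Dpp9, which hold NLRP1B inactive, had ratios of 0.99 and 1.04. Tnfaip3, the NF-κB inhibitor A20, had the lowest ratio of the list, with 263 CPM in R2a against 405 CPM in R2b, 0.65 (0.62 to 0.68). Trim30a had a log2 ratio of 0.33, Card19 -0.24 and Nfe2l2, a factor of the oxidative stress response, -0.23.

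Of 12 transcription factors none was called, with a median log2 ratio of -0.15. Cebpb, a C/EBP factor, had 87.2 CPM in R2a against 164 CPM in R2b, a ratio of 0.53 (0.49 to 0.57) and the lowest of the list. Irf7, an interferon-induced factor, had 56.8 CPM in R2a against 37.5 CPM in R2b, and Irf1 and Foxo3 had log2 ratios of -0.25 and -0.22. Irf8, a factor of Naip genes in mice, had a ratio of 0.98, and Spi1, the gene of PU.1, 1.03.

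**Figure D5:**
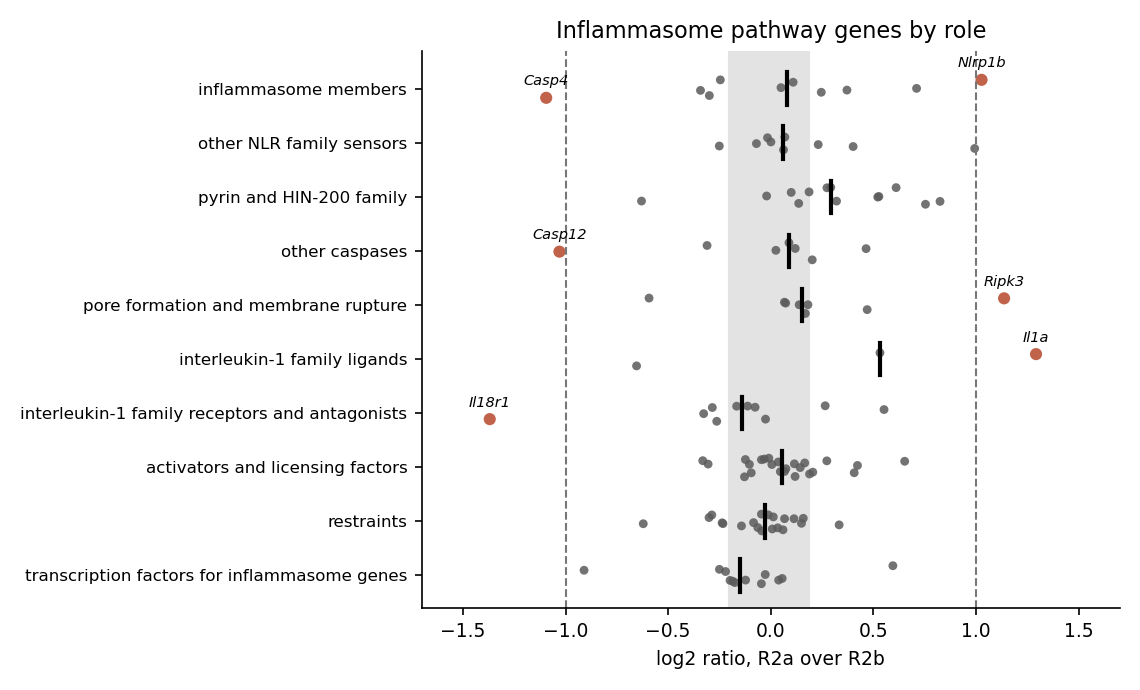
Log2 ratio of R2a over R2b for each gene over the minimum, by role, with the list median as a black bar and called genes named. The grey band is the middle part of all genes, from -0.20 to 0.19, and the broken lines are the 2-fold rule. Most points lie inside the rule, and 6 genes in all lie beyond it.

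Markers of some other cell types, those of monocytes above all, differed between the libraries, and those of others had no call. Over all genes above the minimum 1.93% were higher in R2a and 1.84% lower. Of 6 monocyte genes 5 were over the minimum and 4 of these were higher in R2a. The summed level of the 6 was 443 CPM in R2a against 206 CPM in R2b. Most of the R2b sum was Nr4a1, which went the other way, at 136 CPM in R2a against 164 CPM in R2b. Ccr2 stood at 267 CPM in R2a against 29.7 CPM in R2b, and Ly6c2, of inflammatory monocytes, had 5 reads in R2a against 0 in R2b. Of 6 dendritic cell genes 5 were over the minimum and 2 of these, Dpp4 and Xcr1, were higher. The list summed to 118 CPM in R2a against 58.5 CPM in R2b. Most of each sum was Dpp4, at 65.3 CPM in R2a against 24.8 CPM in R2b, and Clec9a, at 37.5 against 20.9 CPM. Flt3 had a ratio of 1.08 (0.78 to 1.48) and Zbtb46 0.86 (0.61 to 1.20), and Cd209a was under the minimum. The part of these and the following cell types in the ratios of Nlrp1b and Casp4 was not tested. The neutrophil genes S100a8, S100a9 and Cxcr2 had at most 9 reads in a library, Ly6g and Mmp8 had 0, and the list of 6, nearly all of it Csf3r, summed to 60.6 CPM in R2a against 59.9 CPM in R2b. The 5 proximal tubule genes summed to 1701 CPM in R2a against 1843 CPM in R2b, and the 5 distal nephron genes to 904 CPM in R2a against 1043 CPM in R2b, with none called in either list. Of 5 podocyte genes 2 were higher, summing to 97.7 CPM in R2a against 58.5 CPM in R2b, and of 5 endothelial genes 0 were called, at 48.3 CPM in R2a against 33.8 CPM in R2b. Of 5 B cell genes 3 were over the minimum, and 1 was lower, Pax5, with 3 reads in R2a against 25 in R2b. The list, nearly all of it Cd79b, summed to 28.5 CPM in R2a against 35.7 CPM in R2b. Of 6 T and NK cell genes 2 were over the minimum, and 1 was lower, Cd3e, with 4 reads in R2a against 34 in R2b. That list summed to 2.31 CPM in R2a against 4.08 CPM in R2b. The 9 macrophage genes had no call and summed to 9345 CPM in R2a against 11201 CPM in R2b. Ratios were below 1 for 8 of them. Mrc1 was just short of the rule, at 858 CPM in R2a against 1651 CPM in R2b, a ratio of 0.52 (0.51 to 0.53). Ptprc went the other way, with a ratio of 1.30.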

How the data were processed

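RNA of kidney macrophages was read as 75-base pairs from 2 libraries, R2a (CD11c-positive) and R2b (CD11c-negative), 1 per population. The authors deposited raw counts of reads per gene. Per the submitters' processing notes the tools were bcl2fastq 2.18.0.12, STAR 2.5.3 and HTSeq 0.9.1 on GRCm38. DESeq2 is also named there, and its output is not used here. The annotation release and the strand setting stand in no source used here.

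The 5 summary rows were left out of library sizes, and the genes held 47.9% of all reads in R2a and 50.3% in R2b. Counts became CPM with edgeR 4.0.16 TMM factors of 1.03 and 0.973 (R 4.3.3). Ratios carry exact 95% binomial intervals of the counts, and levels exact Poisson intervals (scipy 1.17.1). Reads are not molecules, since no molecular identifiers were used. Symbols, exon lengths and positions came from GENCODE M21, which matched 48349 of 48795 genes (41341 with the version) and may not be the authors' release. Promoter windows came from RefSeq tables and were aligned with biopython 1.88. The calculations were checked on simulated counts.

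With 1 library a group no test was run. The rule for a call was a log2 ratio of 1 or more in size with 0.5 CPM added, 1 CPM in the higher library and an interval without 1. Named genes were all members, all called genes of each role list and its 4 largest log2 ratios of genes over 5 CPM, genes near Nlrp1b with 10 or more reads, and the 3 nearest to it in level. Naip1, Nek7, P2rx7, Dpp8, Dpp9, Irf8 and Spi1 were added for their known roles after their values were seen. Mefv, under 5 CPM, was added for the size of its ratio. A gene that the rule takes from the list of other caspases is not reported here. Members and lists were chosen with earlier results of these data known. The 10 alternatives were 3 scalings (DESeq2 1.42.0 size factors among them), 2 added values, 2 CPM minimums, thinning of R2b to the R2a depth and 2 other fold rules.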

Additional observations from a re-analysis of the deposited data

Results flagged for a closer look

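Reads that the count table holds but no gene received were a large part of both libraries, and no result above uses them. Of all rows summed, 41.2% lay outside annotated exons in R2a, against 38.9% in R2b. Reads that fell on several genes were 2.42% in R2a against 2.51% in R2b, and those with several alignments 8.50% in R2a against 8.33% in R2b. The table does not place any of these reads, so how many came from the NAIP and NLRP1 genes was not tested.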

How the results depend on the processing

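Nlrp1b kept its call in 6 of 6 alternatives of scaling, added value and thinning, with log2 ratios from 1.01 to 1.10, and Casp4 kept its call in the same 6, from -1.11 to -1.02. The call rule itself decides both, since with a 4-fold rule 0 members were higher and 0 lower, and with a 1.5-fold rule 2 were higher, Nlrp1a joining Nlrp1b. Over all genes the counts of higher and lower genes were 869 and 903 with the 1.5-fold rule, and 41 and 16 with the 4-fold rule. They were 493 and 462 with 0.1 CPM added, 82 and 78 with 2 CPM added, and 92 and 97 with a minimum of 5 CPM. Of the pathway genes 8 were higher and 6 lower with the 1.5-fold rule, and 0 and 0 with the 4-fold rule. With R2b thinned 4 were higher, with 2 CPM added 0 were higher and 1 lower, and 1 was lower with a minimum of 5 CPM or with total-count scaling. Total-count scaling moved the median of all genes to 0.07 and gave 377 higher and 240 lower genes, so 61.1% of calls were higher, where it was 51.2% in the values above. Under it the members' median was 0.16 and Nlrp3 stood at -0.22. Casp1, near 0, ranged from -0.02 to 0.13. Nlrp1c-ps passed the rule with DESeq2 factors (1.01), thinning (1.02) and total counts (1.07). The cause of these moves was not tested. No paired analysis was possible because each population has 1 library, and for the same reason no library could be left out. Depth limits Casp12, with 13 reads in R2a. For Aim2 and Casp1 it limits only whether their ratios can be told apart from 1, since their counting intervals include 1 and stay inside the 2-fold rule.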
